A study of Mus musculus with 16 samples.

Results

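The Notch receptors Notch1 and Notch2, the ligands Dll1, Dll4 and Jag1, the Notch target Hes1 and the transcription factors Atoh1, Spdef, Gfi1 and Sox4 were followed through single cells of the mouse intestinal crypt. These 10 genes were chosen by name, all 10 are listed in both count matrices, and each matrix lists 24421 genes. Crypt cells were isolated at postnatal day 16 from outbred wild-type (WT) mice and from littermates carrying ROBO-Crainbow together with Villin-Cre, here called ROBO, with 8 deposited samples per genotype. In ROBO mice, Villin-Cre recombines the transgene, which a CAG promoter drives from the ROSA locus, in the intestinal epithelium from embryonic life onwards, and each recombined cell expresses human RSPO3 or 1 of 2 PTPRK:RSPO3 fusions with a fluorescent protein, so the ROBO cells are a mixture of transgene outcomes. No mouse was given a treatment. The matrices name cells by genotype and number only, with no barcode, so each genotype was 1 pooled sample of unknown composition over mice, no test between genotypes was possible, and barcodes shared between libraries could not be counted. Intervals given here are exact 95% intervals that cover counting error only. The human transgene is not a row of the matrices, and the mouse gene Rspo3, with 24 UMIs in WT and 16 in ROBO, does not check the labels.

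Notch signalling passes between touching cells. A ligand of the Delta or Jagged family on 1 cell binds a Notch receptor on its neighbour, the receptor is cut, and its intracellular part joins the DNA-binding protein RBPJ and switches on targets such as Hes1. In the intestinal crypt, cells that receive the signal remain dividing or become absorptive enterocytes, since HES1 represses Atoh1. Cells that escape it express Atoh1, present Delta ligands and enter the secretory lineage of goblet, Paneth, enteroendocrine and tuft cells.

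The matrices hold 1348 WT and 1249 ROBO cells, with a median of 1492 and 1610 unique molecular identifiers (UMIs, each marking 1 captured RNA molecule) per cell. Clustering without the 10 genes or their pathway lists gave 12 clusters, which were named from marker genes. The stem cell-like class held 1062 cells and the transiently amplifying-like class 357, and together they are called the stem and amplifying cells. The division between these classes moved with the clustering. They held 995 and 662 cells at a resolution of 0.4, and 545 and 866 with 30 principal components. Contrasts between them are given for the main clustering. The stem cell-like cluster of 314 cells had 12 stem cell markers raised, and those of 397 and 351 cells had 4 each, so the name is weaker there. The absorptive compartment held 254 bottom, 503 middle and 227 top enterocyte-like cells. The secretory compartment held 122 cells of 1 goblet and Paneth-like cluster and 27 enteroendocrine-like cells, and a further 45 cells were immune-like. No cluster was tuft-like, but 10 cells had at least 5 tuft markers, 9 of them in the goblet and Paneth-like cluster. Another 8 cells, within the stem cell-like class, carried at least 8 fibroblast markers, against at most 2 in any other cell, and held 4 Notch2, 2 Jag1 and 1 Gfi1 UMIs. One stem cell-like cluster was led by the ribosomal RNA transcript Rn45s and had a median of 773 UMIs, and 1 enterocyte cluster was led by the stress-response genes Cxcl10, Fosb and Atf3.

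Atoh1, Spdef and Dll1 were highest in the goblet and Paneth-like cells, and Dll4 was high in these and in the enteroendocrine-like cells. Among epithelial cells Notch1 and Notch2 were highest in the stem and amplifying classes. Hes1 was highest in these classes and in bottom enterocyte-like cells, and Sox4 in enteroendocrine-like and stem cell-like cells. Levels are UMIs of a gene per 10000 UMIs of the cells concerned. They are compared between cells for 1 gene and not between genes, because a 3′ count does not scale with abundance equally for all genes.

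**Figure D1:**
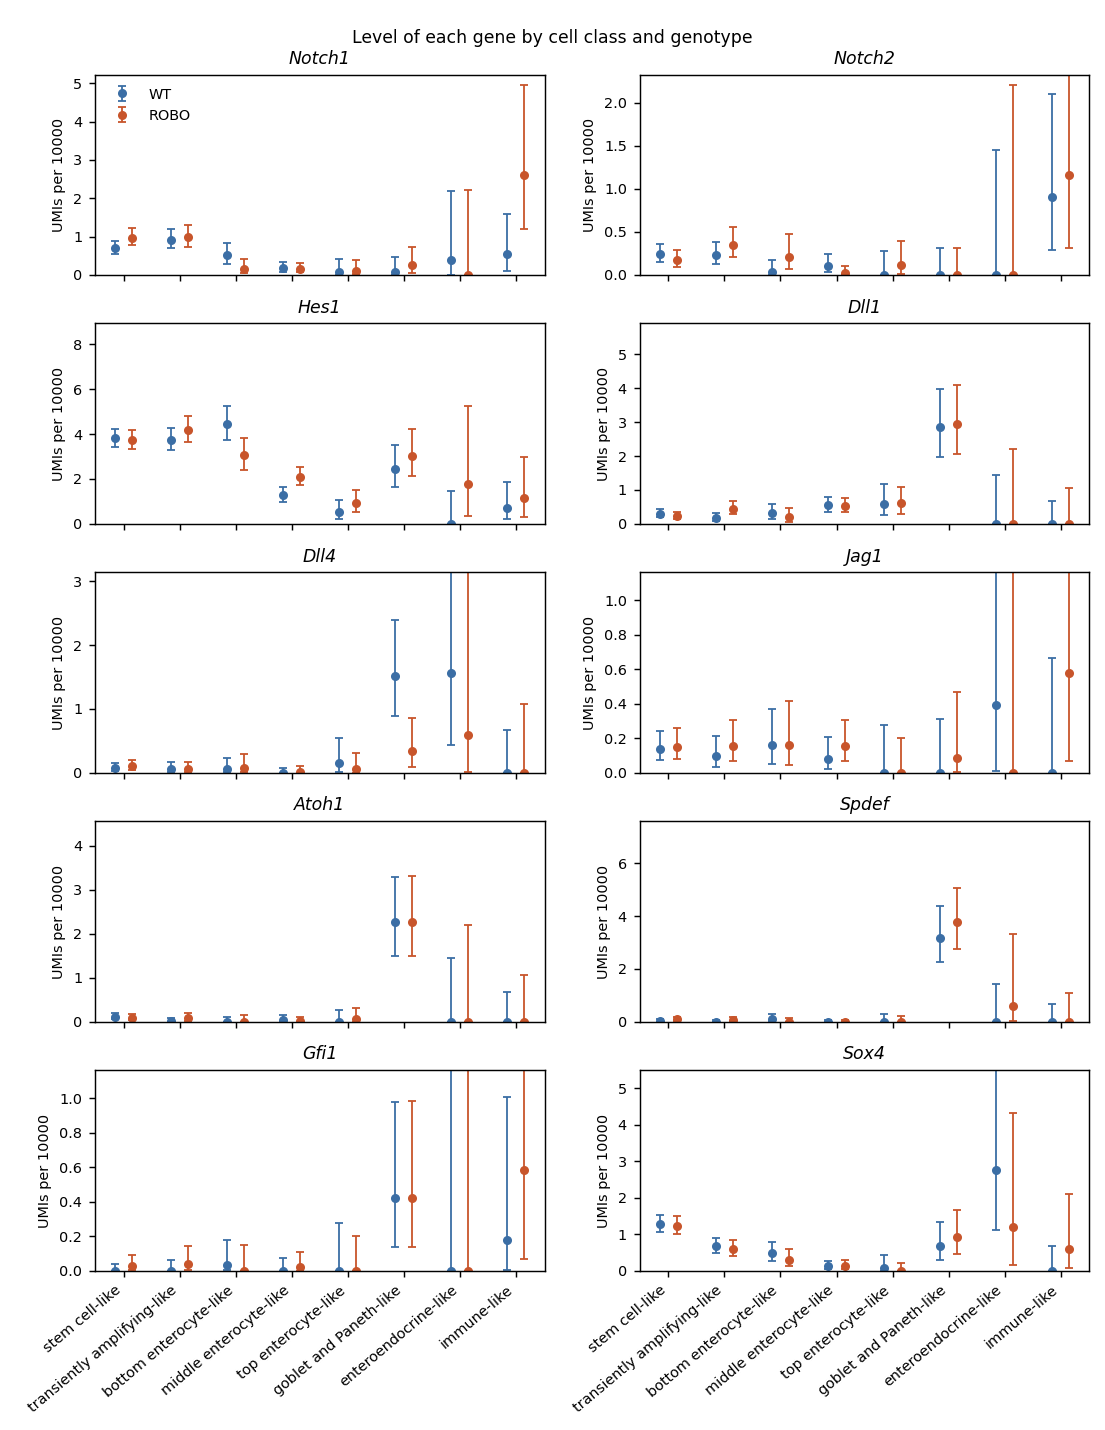
Level of each of the 10 genes in UMIs per 10000 (y axis, linear, with its own range in each panel) by cell class (x axis) in WT (blue) and ROBO (orange), each 1 pooled sample. Points are levels and bars are exact 95% Poisson intervals, which run off the panel in the smallest classes. Atoh1 stood at 2.27 in WT and 2.28 in ROBO goblet and Paneth-like cells and at or below 0.108 in every other class and genotype.

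Atoh1, the basic helix-loop-helix factor that commits crypt cells to the secretory lineage (chr6:64729125-64731245, plus strand; all positions are GRCm38), was counted 40 times in WT cells and 40 times in ROBO cells. Of these 80 UMIs, 54 lay in 29 goblet and Paneth-like cells, 27 in each genotype. Its level there was 2.27 per 10000 (interval 1.71 to 2.97), with no more than 7 UMIs in 1 cell. In stem cell-like cells it was 0.0984 (0.0573 to 0.157) and in transiently amplifying-like cells 0.0442 (0.0144 to 0.103), and these last intervals overlapped. Secretory cells were 4.65 above stem and amplifying cells on the log2 scale (3.91 to 5.43), with 4.71 in WT and 4.58 in ROBO. The absorptive compartment held 4 Atoh1 UMIs in all and was 3.62-fold lower than stem and amplifying cells. No Atoh1 UMI was seen in enteroendocrine-like cells, where 3 UMIs would correspond to 0.711 per 10000.

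Spdef, an ETS-family factor that drives goblet and Paneth cell maturation (chr17:27714352-27728955, minus strand), had the largest secretory to stem and amplifying ratio of the 10 genes. Of its 44 WT and 56 ROBO UMIs, 38 and 45 were in goblet and Paneth-like cells. The level there was 3.19 per 10000 (2.26 to 4.38) in WT and 3.80 (2.77 to 5.08) in ROBO, and both lay far above the 0.0579 (0.0277 to 0.106) of stem cell-like cells. Secretory cells exceeded stem and amplifying cells by 6.05 on the log2 scale (5.19 to 7.01), an interval that overlapped those of Atoh1 and of Gfi1. Middle and top enterocyte-like cells held no Spdef UMI. Gfi1, a zinc-finger repressor downstream of Atoh1 (chr5:107716657-107726036, minus strand), was near the limit of detection with 7 WT and 12 ROBO UMIs. Its 10 UMIs in the goblet and Paneth-like cluster came from 6 cells, and 3 more came from immune-like cells, a lineage in which Gfi1 is also known to be expressed. With 14 UMIs over the secretory and the stem and amplifying cells together, Gfi1 was below the 20 UMIs required for a call.

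Among the ligands, Dll1 (chr17:15367354-15376872, minus strand) and Dll4 (chr2:119325784-119335962, plus strand) shared the secretory maximum and differed elsewhere. Dll1 reached 2.85 per 10000 (1.98 to 3.99) in WT and 2.96 (2.06 to 4.11) in ROBO goblet and Paneth-like cells, from 34 and 35 UMIs. The secretory compartment was 3.16 above stem and amplifying cells on the log2 scale (2.67 to 3.64). Dll1 was also detected in enterocyte-like cells, at 0.536 (0.403 to 0.70) in the middle and 0.604 (0.364 to 0.944) in the top class. Those levels were above the 0.260 (0.190 to 0.348) of stem cell-like cells, and their intervals did not overlap it, but they overlapped the interval of transiently amplifying-like cells, at 0.301 (0.208 to 0.420). The absorptive compartment as a whole was 0.76 above stem and amplifying cells on the log2 scale (0.30 to 1.22), short of the 2-fold used for a call. Enteroendocrine-like and immune-like cells held no Dll1 UMI.

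Dll4 was present in both secretory classes, at 0.926 per 10000 (0.580 to 1.40) in goblet and Paneth-like and 1.18 (0.385 to 2.77) in enteroendocrine-like cells, with overlapping intervals. Every other class had 0.0954 or less. Its 27 secretory UMIs against 22 in the much larger stem and amplifying compartment gave a log2 ratio of 3.65 (2.78 to 4.53). Jag1 (chr2:137081456-137116644, minus strand), the Jagged-family ligand, had no such maximum. It had 29 WT and 35 ROBO UMIs, and its level was between 0.119 and 0.161 in stem cell-like, transiently amplifying-like, bottom and middle enterocyte-like cells. Only 1 Jag1 UMI was found in goblet and Paneth-like cells. The secretory to stem and amplifying log2 ratio of -0.93 had an interval from -4.03 to 1.02 and was not a detectable difference at this depth.

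The receptors ran the other way. Notch1 (chr2:26457903-26516663, minus strand), the main receptor of the crypt stem cell, was at 0.827 per 10000 (0.697 to 0.975) in stem cell-like and 0.955 (0.783 to 1.15) in transiently amplifying-like cells, which did not differ beyond their intervals. Enterocyte-like cells were lower. The bottom class was at 0.357 (0.218 to 0.551), the middle class at 0.169 (0.0984 to 0.270) and the top class at 0.0954 (0.0197 to 0.279). Stem and amplifying cells were 4.13-fold above absorptive cells, with 251 against 40 UMIs, and 4.91-fold above secretory cells, which held 5. Notch2 (chr3:98013527-98150361, plus strand) was also highest among epithelial cells in these classes, at a lower count. It was at 0.208 (0.146 to 0.288) in stem cell-like and 0.283 (0.194 to 0.399) in transiently amplifying-like cells, and 3.20-fold lower in absorptive than in stem and amplifying cells, where the 14 absorptive UMIs were too few to order the enterocyte-like classes. No Notch2 UMI was found in the 149 secretory cells, which was at least 2.22-fold lower than in stem and amplifying cells, taking 3 UMIs over the compartment as the limit. This call was lost in 5 of 22 alternatives, among them the one without enteroendocrine-like and tuft-like cells, where the bound was -0.87 on the log2 scale. Of the 36 Notch2 UMIs in stem cell-like cells, 4 came from the fibroblast-marker cells, and leaving those cells out kept both calls. Over all classes both receptors were highest in immune-like cells, which had 12 Notch1 and 9 Notch2 UMIs, at 1.34 (0.690 to 2.33) and 1.00 (0.458 to 1.90).

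Within the stem and amplifying cells, Notch1 differed between groups of cells set by phase scores. Cluster and depth were not held equal between these groups, and their part in the differences was not tested. By phase scores, 404 of these cells were in G1, 561 in S and 454 in G2M. Notch1 was at 0.465 (0.314 to 0.665) in G1, 0.847 (0.689 to 1.03) in S and 1.17 (0.971 to 1.40) in G2M, so that the G1 interval lay apart from both others. In WT the same order was 0.367, 0.855 and 0.954, and in ROBO it was 0.566, 0.838 and 1.47, although within each genotype the G1 and S intervals overlapped. Hes1, at 3.80, 3.66 and 4.10, and Sox4, at 0.900, 1.05 and 1.02, had overlapping intervals in the 3 phases.

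Hes1 (chr16:30064384-30067796, plus strand), the helix-loop-helix repressor switched on by Notch, had the most UMIs of the 10 genes, 829 in WT and 759 in ROBO. Its highest levels did not differ beyond their intervals, being 3.95 per 10000 (3.59 to 4.34) in the transiently amplifying-like class, 3.85 (3.36 to 4.40) in the bottom enterocyte-like class and 3.78 (3.50 to 4.09) in the stem cell-like class. Goblet and Paneth-like cells followed at 2.74 (2.11 to 3.49), with an interval just below that of the stem cell-like cells. Middle enterocyte-like cells had 1.70 (1.45 to 1.97), top enterocyte-like cells 0.763 (0.489 to 1.14) and enteroendocrine-like cells 0.711 (0.147 to 2.08). Taken as whole classes, Hes1 was lower at each step from bottom to top enterocyte-like cells. The middle class was uneven, since its cluster led by stress genes was at 4.31 (3.33 to 5.48) and its other 2 clusters at 1.26 (0.981 to 1.60) and 1.18 (0.824 to 1.63). The intervals of those 2 clusters overlapped that of the top class, and the interval of the stress-led cluster overlapped that of the bottom class. The steps therefore do not hold cluster by cluster. Against stem and amplifying cells, the log2 ratio was -0.66 (-1.04 to -0.31) for secretory and -0.82 (-0.98 to -0.65) for absorptive cells, neither reaching 2-fold. The call for absorptive cells depended on the clustering, because it passed 2-fold in 5 of the other clusterings, with values down to -1.34.

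Sox4 (chr13:28948919-28953713, minus strand), an SRY-box factor of progenitors and of early secretory cells, joined the stem and the enteroendocrine ends. Its level was 2.13 per 10000 (0.975 to 4.05) in the enteroendocrine-like cells, from 9 UMIs, and 1.25 (1.09 to 1.43) in stem cell-like cells, from 216. Goblet and Paneth-like cells had 0.80 (0.482 to 1.25) and transiently amplifying-like cells 0.628 (0.490 to 0.792). The stem cell-like clusters differed among themselves. The cluster led by Cym, Igfbp4 and Lgr5 had 1.80 (1.47 to 2.17) Sox4 UMIs per 10000. The cluster led by Myl7, Ascl2, Reg3b and Reg3g had 0.793 (0.611 to 1.01). Reg3b and Reg3g are bottom enterocyte markers, and this cluster had 4 stem cell markers raised against 12 in the first. Differences between these clusters are therefore not shown to lie among stem cells. Hes1 separated the same clusters, at 5.30 (4.74 to 5.92) and 2.42 (2.09 to 2.78), and so did Dll1, at 0.466 (0.309 to 0.673) and 0.111 (0.0510 to 0.212). Sox4 was 5.25-fold lower in absorptive than in stem and amplifying cells, while the secretory log2 ratio was -0.004 (-0.62 to 0.56).

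**Figure D2:**
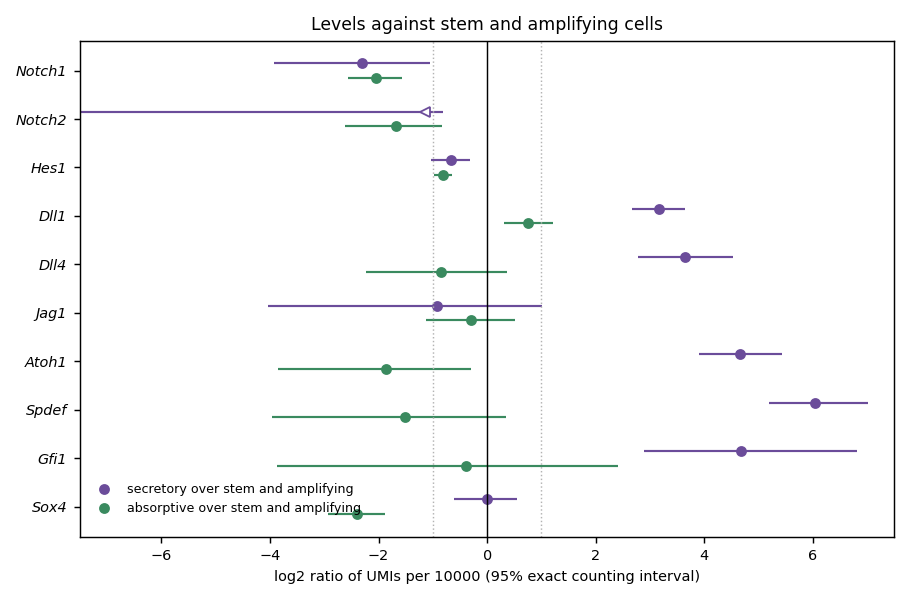
Log2 ratio of UMIs per 10000 against stem and amplifying cells (x axis) for each gene (y axis) in secretory (purple) and absorptive (green) cells, with exact 95% counting intervals. Dotted lines mark 2-fold, and the open triangle of Notch2 is a bound set by 3 UMIs. Dll1, Dll4, Atoh1, Spdef and Gfi1 lie between 3.16 and 6.05 for secretory cells, with Gfi1 below the 20 UMIs required for a call.

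By the rule of at least 2-fold with at least 20 UMIs, 4 of the 9 genes that could be called were higher in secretory than in stem and amplifying cells (Dll1, Dll4, Atoh1 and Spdef) and 2 were lower (Notch1 and Notch2). Over all 9860 genes with enough UMIs, 7.87% were higher and 16.9% lower, and their median log2 ratio was -0.25. For absorptive cells, 0 of 8 genes were higher and 4 were lower (Notch1, Notch2, Atoh1 and Sox4), beside 10% higher and 22.8% lower of 10290 genes. These are calls by size and not tests. The calls had the same direction in each genotype where both had UMIs, with secretory over stem and amplifying log2 ratios of 3.26 in WT and 3.05 in ROBO for Dll1 and of -2.51 and -2.14 for Notch1. The sizes lay further apart for Dll4, at 4.42 in WT and 2.14 in ROBO, from 22 and 5 secretory UMIs. They also did for Spdef, at 7.08 and 5.48, from 3 and 10 stem and amplifying UMIs.

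To compare shares of cells at equal depth, 912 UMIs, the first quartile of depth, were drawn from each cell, leaving out 364 WT and 285 ROBO cells. Atoh1 was then seen in 12 of 86 goblet and Paneth-like cells, or 14.0% (Clopper-Pearson interval 7.42 to 23.1), in 0.864% (0.396 to 1.63) of stem and amplifying cells and in 0.131% (0.00331 to 0.726) of absorptive cells. Without thinning, the goblet and Paneth-like share was 23.8%. Spdef was seen in 23.3% (14.8 to 33.6) of goblet and Paneth-like and 0.384% (0.105 to 0.980) of stem and amplifying cells. Hes1 was seen in 26.8% (24.1 to 29.6) of stem and amplifying, 20.9% (12.9 to 31.0) of goblet and Paneth-like and 14.5% (12.1 to 17.2) of absorptive cells. As a measure of free RNA, 0 of 36 immune-like cells had a UMI of Atoh1, Spdef or Dll1, and 5.56% (0.680 to 18.7) had a Hes1 UMI. With 3 standing for a count of 0, the 0 of 36 allows a share of up to 8.33%. That limit is above the Atoh1 and Spdef shares of stem and amplifying cells, so it cannot check whether free RNA gave them. The median depth before thinning of the cells kept was 1980.5 UMIs in goblet and Paneth-like and 1907 in immune-like cells.

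The goblet and Paneth-like cluster held both cell types. After its values were seen, its cells were divided by whether goblet or Paneth marker UMIs were more numerous, which left 73 goblet-leaning and 40 Paneth-leaning cells, with 3 cells near the cut. Dll1 was almost wholly on the goblet side, with 66 UMIs in 28 goblet-leaning cells against 1 UMI among the Paneth-leaning cells, or 3.94 (3.05 to 5.02) against 0.159 (0.00403 to 0.886) per 10000. Atoh1 followed it at 2.99 (2.22 to 3.94) against 0.636 (0.173 to 1.63). Spdef, at 4.18 (3.26 to 5.28) and 1.91 (0.986 to 3.33), and Dll4, at 1.08 (0.637 to 1.70) and 0.636 (0.173 to 1.63), were nearer to each other, with intervals that met. All 10 Gfi1 UMIs of the cluster were in goblet-leaning cells. Hes1 was at 2.63 (1.91 to 3.53) and 3.18 (1.94 to 4.91) and did not separate the sides.

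**Figure D3:**
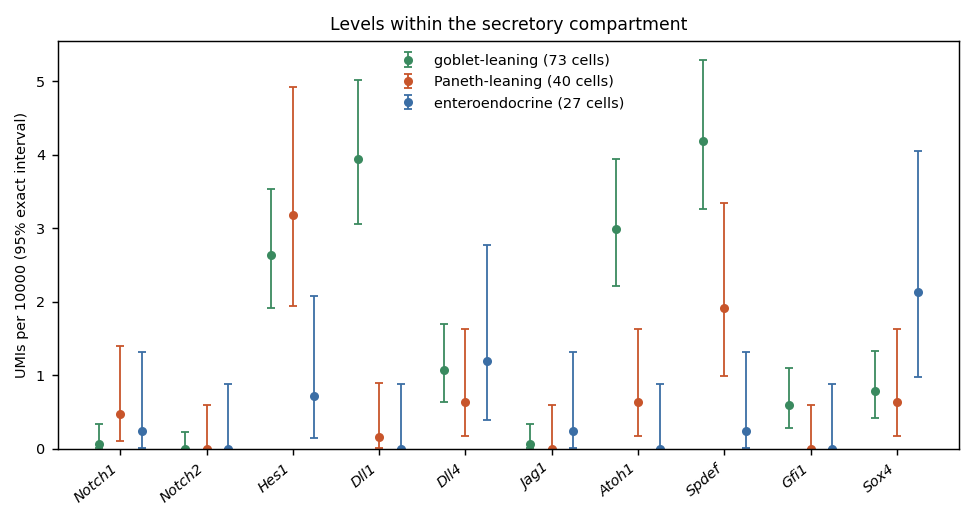
Level in UMIs per 10000 (y axis) of each gene (x axis) in goblet-leaning (green), Paneth-leaning (orange) and enteroendocrine-like (blue) cells of both genotypes together, with exact 95% Poisson intervals. Dll1 stands at 3.94 in goblet-leaning cells and 0.159 in Paneth-leaning cells, and Sox4 is highest in the 27 enteroendocrine-like cells, at 2.13.

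At the level of single cells, the secretory genes were found together. Among the 51 cells with an Atoh1 UMI, 39.2% (25.8 to 53.9) also had a Dll1 UMI, against 5.81% (4.94 to 6.79) of the other 2546 cells. For Spdef the shares were 33.3% (20.8 to 47.9) and 1.61% (1.16 to 2.18), and for Dll4 17.6% (8.40 to 30.9) and 1.57% (1.12 to 2.13). The cells with Atoh1 were deeper, with a median of 2200 against 1540 UMIs, so levels per 10000 were also compared. Dll1 was 3.21 higher on the log2 scale (2.72 to 3.67), Spdef 4.53 (3.92 to 5.14) and Dll4 3.42 (2.40 to 4.34), while Sox4, at 0.08 (-0.99 to 0.98), did not differ beyond its interval. Muc2, the goblet cell mucin, was 4.80 higher (4.67 to 4.93). None of the cells with Atoh1 had a UMI of Neurog3 or Neurod1, the enteroendocrine factors. These had only 43 and 74 UMIs over all cells, so a count of 0 among 51 cells does not show that they exclude Atoh1.

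These values mix cell types, and within the goblet and Paneth-like cluster the contrasts were smaller. Its 29 cells with Atoh1 had 0.97 more Dll1 on the log2 scale (0.25 to 1.70) than its 93 cells without it, whereas Spdef, at 0.44 (-0.22 to 1.10), did not differ beyond its interval. Hes1 was lower in the cells with Atoh1, by a log2 ratio of -1.38 (-2.42 to -0.46), from 12 against 53 UMIs, and by -3.06 (-6.14 to -1.14) in the 13 cells with at least 2 Atoh1 UMIs. Of the 29 cells, 25 were goblet-leaning and 4 Paneth-leaning. Median depths there were 2727 and 1341 UMIs, and the part of depth in these values was not tested. Among stem and amplifying cells, 19 had an Atoh1 UMI. They held 11 Dll1 UMIs, 3.39 above the other 1400 cells on the log2 scale (2.32 to 4.32), and 3 Dll4 UMIs, 3.35 above (0.96 to 5.12). As many as 6 Dll1 UMIs lay in 1 stem and amplifying cell, whether or not among the 19. The counting intervals do not cover such clumping. The Hes1 level of the 19 cells, 3.22 per 10000, was close to the 3.86 of the other stem and amplifying cells, with a log2 ratio of -0.26 (-1.14 to 0.49).

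**Figure D4:**
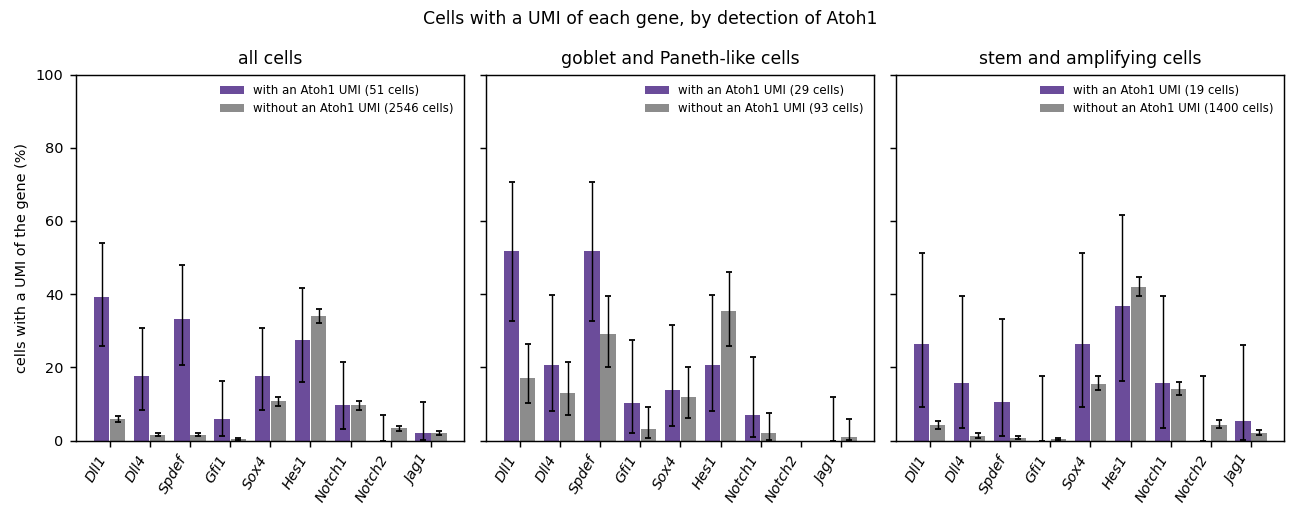
Percent of cells with a UMI of each gene (y axis) among cells with (purple) and without (grey) an Atoh1 UMI, in all cells, in goblet and Paneth-like cells and in stem and amplifying cells. Error bars are Clopper-Pearson 95% intervals, cells are not thinned, and a missing bar is a share of 0. Dll1 was seen in 26.3% of the 19 stem and amplifying cells with Atoh1 and in 4.14% of the 1400 without.

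Since Atoh1, Dll1 and Spdef varied together and Sox4 varied with the stem cells, the 250 bases upstream of their annotated starts are shown, to set the letters of known binding motifs beside the levels. The sequences are from RefSeq (GRCm38.p6), which gave entries for 9 of the 10 genes. Capitals mark the E box bound by basic helix-loop-helix factors such as ATOH1 (CAGNTG) and the core of the RBPJ motif (TGGGAA), searched on both strands, with no overlap between the 2 motifs in these sequences. They lie at chr6:64728875-64729124 (plus strand), chr17:15376933-15377182 (minus strand), chr17:27728952-27729201 (minus strand) and chr13:28953700-28953949 (minus strand), and run 5′ to 3′.
Atoh1: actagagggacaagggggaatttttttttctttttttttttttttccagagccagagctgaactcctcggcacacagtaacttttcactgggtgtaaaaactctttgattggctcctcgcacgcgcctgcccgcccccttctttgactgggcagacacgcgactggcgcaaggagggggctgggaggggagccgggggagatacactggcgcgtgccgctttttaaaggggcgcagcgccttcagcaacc
Dll1: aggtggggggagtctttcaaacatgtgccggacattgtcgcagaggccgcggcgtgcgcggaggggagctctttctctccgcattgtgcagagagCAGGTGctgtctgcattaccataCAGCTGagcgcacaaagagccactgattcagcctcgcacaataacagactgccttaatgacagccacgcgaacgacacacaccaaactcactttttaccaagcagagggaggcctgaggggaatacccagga
Spdef: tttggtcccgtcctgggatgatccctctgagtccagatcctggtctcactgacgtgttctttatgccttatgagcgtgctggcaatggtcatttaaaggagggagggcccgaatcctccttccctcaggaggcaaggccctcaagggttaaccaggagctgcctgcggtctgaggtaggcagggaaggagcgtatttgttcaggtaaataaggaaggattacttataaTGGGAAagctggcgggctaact
Sox4: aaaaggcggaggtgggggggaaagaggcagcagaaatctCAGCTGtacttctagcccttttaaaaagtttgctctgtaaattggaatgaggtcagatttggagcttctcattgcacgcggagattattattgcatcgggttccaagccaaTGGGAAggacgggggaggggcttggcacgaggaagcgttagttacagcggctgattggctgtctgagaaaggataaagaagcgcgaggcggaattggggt
For Dll1, which has a second RefSeq start, the stretch farther upstream is shown. It holds 2 E boxes, beginning 155 and 132 bases before the start, whereas the stretch before the other start holds none, and Sox4 holds 1, at 211 bases. The RBPJ core begins 22 bases before the Spdef start and 100 bases before the Sox4 start. The Atoh1 stretch held neither. The 9 genes with an entry had 11 such stretches. An E box was found in 4 of the 11, beside 44.8% of all 32851 upstream stretches, and the RBPJ core in 2 of 11, beside 21.6%. The N box CACNAG, to which HES1 binds, was found in 4 of 11 (Notch1, Notch2, Dll4 and Sox4), beside 36.7%.

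The rest of the pathway was followed in 75 listed genes. Among 23 factors of secretory fate, 17 had enough UMIs and 15 were higher in secretory than in stem and amplifying cells, with a median log2 ratio of 4.62 and none lower, beside 7.87% higher of all genes. The list was chosen with earlier results of these data known. Neurod1 and Nkx2-2 were also among the leading genes of the enteroendocrine-like cluster, so this count is a description and not a test. Over all 75 listed genes, 16 were higher, and 8 without the enteroendocrine-like and tuft-like cells. They included the enteroendocrine factors Nkx2-2 (6.98, interval 5.32 to 9.32), Isl1 (5.75), Neurog3 (5.27), Neurod1 (5.25), Insm1 (4.80), Rfx6 (4.68), and the ciliary and endocrine factor Rfx3 (1.03, interval -0.71 to 2.44). Factors of the secretory machinery were also higher, with 4.85 (3.99 to 5.77) for Creb3l4, 4.62 (4.03 to 5.23) for Creb3l1 and 1.26 (0.91 to 1.59) for Xbp1. The forkhead genes Foxa2, Foxa3 and Foxa1 were at 3.15, 2.65 and 1.15, the co-repressor Cbfa2t3 at 4.63, and Klf4, a goblet cell factor, at 2.66. Klf4 was also 1.63 higher in absorptive cells (1.38 to 1.89). Sox9, a factor of progenitors and Paneth cells, was at 0.39 (0.03 to 0.73).

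Genes that process the Notch receptor were spread more evenly than the factors of secretory fate. Of 8 processing genes with enough UMIs, 0 were called in either compartment. Among them were Adam10, the protease that sheds the receptor, and the gamma-secretase subunit gene Ncstn. Of all genes, 7.87% were called higher and 16.9% lower in secretory cells, and 10% higher and 22.8% lower in absorptive cells. Calls in the lists below stand beside the same shares. Whether any of these lists departs from them was not tested. Secretory log2 ratios were 0.20 (-0.42 to 0.77) for Adam10 and 0.15 (-0.47 to 0.72) for Ncstn. Of the nuclear partners, Spen and Kdm5a were at 0.04 and -0.03, Snw1 at -0.21, and only Maml1, a coactivator, was called lower, at -1.69 (-4.77 to 0.22) from 2 secretory UMIs. Among the glycosyltransferases that modify the receptors, Lfng was called higher, at 1.03 (-0.38 to 2.22), and Pofut1 lower, at -1.30 (-2.63 to -0.23), while Rfng and Poglut1 were at -0.59 and 0.18. In absorptive cells Lfng was called lower, at -2.94 (-5.29 to -1.28), as were Poglut1, at -1.29 (-2.15 to -0.50), the coactivator gene Maml3, at -1.98 (-3.52 to -0.72), and Fbxw7, which targets the cleaved receptor for degradation, at -1.05 (-1.83 to -0.32). Of the trafficking genes, the ubiquitin ligase gene Dtx4 was called lower, at -1.09 (-2.74 to 0.17), and Neurl3, Itch and Numb were at 0.72, -0.42 and -0.83. Dtx4 was also lower in absorptive cells, at -1.64 (-2.36 to -0.98). Numb, which restrains Notch receptors, was 1.04 higher in absorptive cells (0.70 to 1.38). Hes6, a Hes-family gene not taken here as a readout of Notch, was at 0.95 (0.56 to 1.33) in secretory cells. The targets Nrarp and Olfm4 were at -0.79 (-1.81 to 0.08) and -0.20 (-2.14 to 1.25) there. Olfm4 was 2.37 lower in absorptive than in stem and amplifying cells. The other receptors and ligands were scarce, with 25 UMIs for Jag2, 15 for Notch4, 7 for Dlk1 and 0 for Notch3 over all cells.

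For each member with at least 100 UMIs, the most similar patterns among 7458 genes were sought over 16 points, 8 classes in each of 2 genotypes. These correlations describe points that share cells and library depth, and genes are not independent. Spdef was most like Spink4, Tff3 and Nupr1, at Pearson r of 0.93, 0.90 and 0.87, and the first 2 are goblet cell products. Dll1 was most like Sel1l3, Rassf6 and Mgat3 (0.93, 0.93 and 0.91), and Notch1 most like Prps1l3, Topbp1 and Mis18a (0.93, 0.90 and 0.90). Hes1 was most like Homer2 (0.96), and Sox4 most like Igf1r, Mgat4b and Gpld1 (0.97, 0.93 and 0.92).

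ROBO and WT cells were then compared. Over all cells, 8 of the 9 genes with at least 20 UMIs differed by less than 1.5-fold. Hes1 stood at 3.13 per 10000 in ROBO and 3.09 in WT, a log2 ratio of 0.02 (-0.13 to 0.16), and the interval lay within 1.5-fold. Notch1 was at 0.16 (-0.17 to 0.49), Atoh1 at 0.14 (-0.53 to 0.81), Dll1 at 0.17 (-0.21 to 0.55), Spdef at 0.49 (-0.10 to 1.09) and Sox4 at -0.18 (-0.49 to 0.13). Dll4 was the exception, counted 37 times in WT and 20 times in ROBO, with a log2 ratio of -0.74 (-1.61 to 0.08). Of all 10634 genes with enough UMIs, 9.46% differed by 1.5-fold or more.

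The Dll4 difference lay in the secretory cells. The secretory Dll4 count was 22 in WT and 5 in ROBO, or 1.52 and 0.370 per 10000, a log2 ratio of -2.04 (-3.80 to -0.60). In the goblet and Paneth-like cluster, 18 WT UMIs were spread over 14 cells and 4 ROBO UMIs over 4 cells, with no more than 2 in any cell. The 35 WT and 38 ROBO goblet-leaning cells held 14 and 4, the 21 and 19 Paneth-leaning cells 4 and 0, and the enteroendocrine-like cells 4 and 1. Dll4 had 11 UMIs in each genotype in stem and amplifying cells and 4 in each in absorptive cells. Dll4 was the 1 gene called of 6 that could be called in secretory cells, where 30.4% of all 2896 genes differed by 1.5-fold or more, so a call there is common at this depth. Dll1, Atoh1 and Spdef in the same secretory cells were at 0.14 (-0.58 to 0.86), 0.10 (-0.73 to 0.92) and 0.37 (-0.28 to 1.03). Secretory cells made up 75 of the 1348 WT and 74 of the 1249 ROBO cells, with median depths of 1320 and 1729 UMIs, and a difference between single mice cannot be told apart from one between genotypes.

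In stem and amplifying cells 0 of the 8 genes with enough UMIs differed by 1.5-fold, beside 11.2% of all genes. Notch1 was at 0.31 (-0.06 to 0.68) and Hes1 at 0.05 (-0.13 to 0.22). Dll1 was at 0.34 (-0.33 to 1.02), with values on either side of 0 in the classes that make up this compartment. Transiently amplifying-like cells had 11 WT and 23 ROBO UMIs, a log2 ratio of 1.33 (0.24 to 2.52), and stem cell-like cells had 27 and 18, at -0.38 (-1.32 to 0.54). The 23 ROBO UMIs came from 15 cells, with 6 in 1 cell, and the 11 WT UMIs from 10 cells, with at most 2 in 1 cell. The counting interval does not cover such clumping. The difference between the classes was not tested. Spdef had 3 UMIs in WT and 10 in ROBO there, and Gfi1 0 and 4, too few for a call. In absorptive cells Notch1, with 26 WT and 14 ROBO UMIs, was at -0.90 (-1.95 to 0.09) and Sox4, with 22 and 14, at -0.66 (-1.74 to 0.37), so that 2 of 5 genes were called beside 15.9% of all genes. Both intervals included 0. Neither call was stable, since over the alternative settings Notch1 ran from -1.25 to 0.25 and Sox4 from -1.27 to -0.21.

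**Figure D5:**
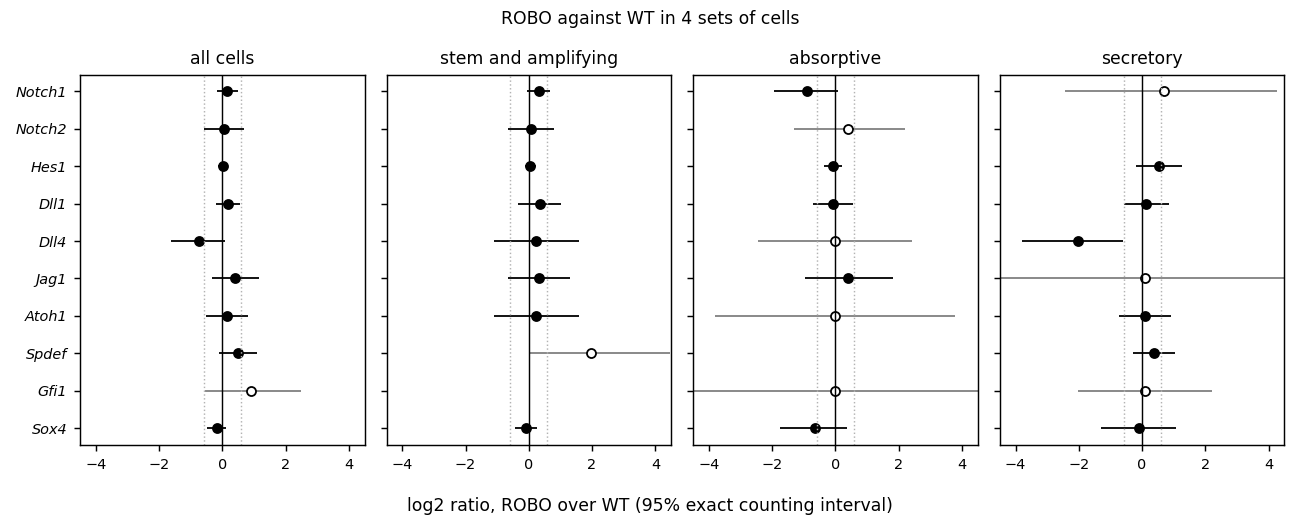
Log2 ratio of UMIs per 10000, ROBO over WT (x axis), for each gene (y axis) in all cells and in the 3 compartments, with exact 95% counting intervals cut at the axis limits. Dotted lines mark 1.5-fold, open circles have fewer than 20 UMIs, and a missing point has no UMI in 1 or both genotypes. Dll4 in secretory cells, at -2.04, is the 1 filled point whose interval leaves out 0.

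Of the 75 listed pathway genes, 49 had enough UMIs over all cells, of which 4 were higher and 3 lower in ROBO by 1.5-fold, beside 9.46% called of all genes. Psenen, a gamma-secretase subunit, was counted 148 times in WT and 212 times in ROBO, which gave 0.66 (0.35 to 0.97) on the log2 scale over all cells and of 0.73 (0.21 to 1.26) in absorptive cells. In secretory cells, 2 of 23 were higher and 5 lower, which is no larger a share than the 30.4% of all genes. Among them the enteroendocrine factors Isl1, at -1.58 (-3.38 to -0.07), and Neurod1, at -0.86 (-1.74 to -0.03), were lower in ROBO, where 12 enteroendocrine-like cells were found against 15 in WT. Their part in these ratios was not tested.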

How the data were processed

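Raw counts of UMIs per gene and cell were deposited by the authors as 1 matrix per genotype, with every value a whole number. Cells had been captured in droplets and sequenced from the 3′ end, and the authors preprocessed reads in BaseSpace Sequence Hub, while the submitters' processing notes name mm10 and GRCm38. The aligner, the annotation, the use of strand and the rule for calling cells are not given in the sources used here. GENCODE M21 places an antisense or other gene over part of Notch1, Notch2, Dll1, Dll4, Gfi1 and Sox4, so counts of these could include another transcript.

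The members and the gene lists were chosen with earlier results of these data known. Counts were log-normalized and clustered with Seurat 5.3.0 in R 4.3.3, with phase scores regressed out and with 20 principal components of 2000 variable genes at a resolution of 0.8. The 10 genes and the pathway lists were left out of the variable genes. A cluster took the class with the highest sum of log2 fold changes of its markers divided by the length of the marker list. A marker counted when raised at least 1.5-fold and detected in at least 10% of cells, and at least 3 were required. This rule was set after the clusters were seen. Scrublet (scanpy 1.11.5) marked 1 WT and 4 ROBO cells as doublets, and they were kept except in an alternative.

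UMIs were summed over cells and scaled to 10000. Poisson, Clopper-Pearson and conditional exact intervals at 95% were computed with scipy 1.17.1, and 3 UMIs stood for a count of 0. A gene was called between compartments at 2-fold and between genotypes at 1.5-fold, with at least 20 UMIs summed over the 2 groups compared. With cells not assigned to the 8 samples of a genotype, no test was made. Named pathway genes were those called between secretory and stem and amplifying cells or among the 3 with most UMIs of their list, and pathway genes in the genotype comparison, the pathway genes named in absorptive cells and the Muc2 value were chosen after they were seen. Pattern likeness used log2(UMIs per 10000 + 0.05) over class and genotype groups of at least 10 cells. Total UMIs were 2682127 in WT and 2428435 in ROBO. The ratio step was tested on simulated data. Alternatives varied the clustering, the cells used, the weights and thresholds, and the scaling (edgeR 4.0.16 TMM). A few genes that these rules name are not reported here.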

Additional observations from a re-analysis of the deposited data

Results flagged for a closer look

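In 2 cases a gene's ROBO to WT ratio lay on opposite sides of 0 in 2 cell classes, with both counting intervals leaving out 0, out of 66 pairs of gene and class of which 6 had such an interval. The difference between classes was not tested, since each genotype was 1 pooled sample. Hes1 was lower in ROBO bottom enterocyte-like cells, at 3.07 per 10000 against 4.47 in WT, and higher in ROBO middle enterocyte-like cells, at 2.09 against 1.28, a difference between the log2 ratios of 1.25. In the 3 clusters of the middle class, Hes1 was at 1.05 in WT and 1.45 in ROBO, at 0.760 and 1.55, and, in the cluster led by stress genes, at 2.97 and 5.81. The median depth of bottom enterocyte-like cells was 1407.5 UMIs for WT and 2443 for ROBO, and the part of depth in this difference was not tested. Notch1 was lower in ROBO bottom enterocyte-like cells, with 4 against 16 UMIs, and higher in ROBO immune-like cells, with 9 against 3, a difference of 3.93. The 9 ROBO UMIs lay in 4 immune-like cells, with up to 3 in 1 cell, and the 3 WT UMIs in 3 cells. In the bottom class, the 4 ROBO UMIs lay in 4 cells and the 16 WT UMIs in 12.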

How the results depend on the processing

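No paired analysis was possible because the cell names carry no sample number, and for the same reason no replicate could be left out. Between compartments, the secretory excess of Dll1, Atoh1 and Spdef and the lower Notch1 kept direction and call in all 22 alternatives run for them, with log2 ratios of 2.71 to 3.40, 3.96 to 4.97, 5.40 to 6.29 and -2.76 to -2.01. Dll4 lost its call only where 50 UMIs were required. The count of genes lower in secretory cells went from 2 to 1 at a resolution of 0.4, with 30 principal components, with 3000 variable genes and at 3-fold, each without Notch2, and to 4 at 1.5-fold. The count lower in absorptive cells went from 4 to 7 at resolutions of 0.4 and 1.2, and the count higher from 0 to 1, Dll1, at 1.5-fold. Of the 10 genes, 5 kept the class with the highest level at a resolution of 0.4 and with 30 principal components, and neither clustering had an enteroendocrine-like class.

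Between genotypes, the secretory Dll4 ratio ran from -2.79 to -1.65 and kept its call in 19 of 20 alternatives. The secretory count of 1 became 2 without phase regression, at a resolution of 1.2, with 10 principal components and with 1000 variable genes, each time with Hes1, 2 at a minimum of 1 UMI and 0 at 50 UMIs. The absorptive count of 2 became 1 with the 10 genes and lists kept among the variable genes, at a resolution of 1.2, with 1000 variable genes and with equal weights, and 0 at a resolution of 0.4, at 50 UMIs and at 2-fold. The count over all cells became 0 with cells of at least 500 genes and at 2-fold, and 2 at 1 UMI, and the stem and amplifying count of 0 became 1 with 3000 variable genes and 2 at 1 UMI. In absorptive cells Notch1 reversed to 0.25 at a resolution of 0.4 and Jag1 to -0.75 with equal weights. The 16 listed pathway genes higher in secretory cells became 8 at 50 UMIs, 36 at 1 UMI and 8 without enteroendocrine-like and tuft-like cells. The Atoh1 share of 14.0% was 23.8% without thinning, and the Spdef log2 ratio in cells with Atoh1 was 5.33 with at least 2 Atoh1 UMIs. For these changes the cause was not tested. Leaving out the fibroblast-marker cells, the tuft-marker cells or the stress-led cluster was chosen after seeing the data and moved none of the counts.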
